A study of Mus musculus with 12 samples.

Results

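Cholecystokinin, its receptors and the receptors for ghrelin, glucagon-like peptide 1 and calcitonin and amylin were examined in the mouse hypothalamus. The 6 genes, Cck, Cckar, Cckbr, Ghsr, Glp1r and Calcr, were taken by symbol from a table of normalized CPM, read counts scaled to library size, that lists 32494 genes, and all 6 had a mean of at least 1 CPM and entered the test with 15359 genes in all. RNA came from 12 male mice, all with floxed Smc3, the gene of a cohesin subunit, and all given tamoxifen. The labels call 7 mice WT, because they lacked the Camk2a-cre/ERT2 transgene, and 5 mice cKO, because they carried it. Every sample title in both groups also bears the word control, which played no part in the grouping. The transgene gives a tamoxifen-activated Cre recombinase under the Camk2a promoter, which is active in forebrain excitatory neurons. The samples date from 5 weeks past tamoxifen, and an age of 8 weeks is also given, with the step it refers to unstated. The comparison asks whether loss of SMC3 in adult neurons alters the expression of these genes, and the series title names body weight and metabolism.

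Cholecystokinin is a peptide that the gut releases after a meal and that many brain neurons make as a transmitter. It acts through Cckar, the main receptor for its satiety effect in the periphery, and Cckbr, the main receptor in the brain, both of which couple to Gq. Ghsr is the receptor for ghrelin, the stomach hormone that raises appetite, while Glp1r binds glucagon-like peptide 1 and Calcr binds calcitonin and, with RAMP proteins, amylin, which lower food intake and signal chiefly through Gs.

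The promoters of Cck and Cckbr are printed because the ligand and its main brain receptor varied in opposite directions from mouse to mouse. Both come from the RefSeq table for GRCm38.p6 and run from 250 bases before the table's start site to 50 bases after it, 5′ to 3′. The Cck window is chr9:121495645-121495944 on the minus strand and the Cckbr window is chr7:105425481-105425780 on the plus strand.
Cck: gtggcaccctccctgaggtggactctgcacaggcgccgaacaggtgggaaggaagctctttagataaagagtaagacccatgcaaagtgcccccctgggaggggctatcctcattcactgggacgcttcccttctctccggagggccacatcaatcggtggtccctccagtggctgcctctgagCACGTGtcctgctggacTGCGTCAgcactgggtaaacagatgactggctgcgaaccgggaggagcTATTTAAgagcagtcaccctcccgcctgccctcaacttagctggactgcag
Cckbr: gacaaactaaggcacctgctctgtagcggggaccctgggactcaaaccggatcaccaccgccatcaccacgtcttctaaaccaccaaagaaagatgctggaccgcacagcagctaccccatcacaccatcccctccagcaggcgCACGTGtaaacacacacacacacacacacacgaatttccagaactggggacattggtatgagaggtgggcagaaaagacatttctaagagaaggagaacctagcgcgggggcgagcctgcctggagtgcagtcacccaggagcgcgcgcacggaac
Capitals mark letters found by a search of both strands, and positions count back from the start site, the base before it being -1. The E-box letters CACGTG begin at -66 in Cck and at -106 in Cckbr, and 7.15% of 32851 promoter windows of this length held them. The letters TGCGTCA, which resemble the sites of CREB and AP-1 factors, begin at -49 in Cck and were held by 2.12% of windows. The letters TATTTAA, which resemble the element bound by TBP, begin at -1 in Cck and were held by 4.51% of windows. They run across the table's start site, and binding of TBP there was not tested. The windows of Ghsr, Glp1r and Calcr held none of these letters. Among the 5 genes matched, no window held the full cyclic AMP element TGACGTCA (1.79% of all windows) or TATAAA (13.6%). The table matched 5 of the 6 genes, all but Cckar.

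The recovered reads came to between 17126005 and 24010001 in 11 libraries and to 68744112 in WT 1, and the CPM value of 3 reads lay between 0.0436 and 0.178. Smc3 stood at 76.8 to 85.7 CPM in the libraries labelled WT (mean 81.6 ± 3.14, SD, n = 7) and at 116 to 144 CPM in those labelled cKO (131 ± 10.3, n = 5). The targeted gene was thus higher, not lower, in the libraries labelled cKO (log2 difference 0.67, adjusted p = 3.06e-05), and the groups are named by their labels for this reason. The table has 1 value per gene, so reads of the floxed part of Smc3 could not be set apart. Hypothalamus markers summed to 58.9 to 645 CPM in WT and 150 to 682 CPM in cKO, with 0 of 12 tested markers past the threshold. Not every one was found in every library: Nr5a1 had 0 reads in WT 4, and Hcrt was at 0.372 CPM in WT 11. Thalamus markers summed to 1188 to 1986 CPM in WT and 856 to 1265 CPM in cKO. Sums of different lists were not corrected for gene length or list size, so the 2 lists are not compared with each other. Midbrain dopamine markers set 5 libraries apart: Slc6a3, the dopamine transporter, was at 52.6 to 132 CPM in WT 1, WT 4, WT 5, cKO 12 and cKO 13 and at 0.826 to 1.78 CPM in the other 7. In bulk tissue, fewer cells of a type and less RNA per cell cannot be told apart.

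Cck, which encodes the peptide precursor, was lower in the libraries labelled cKO. In WT mice 1, 4, 5, 6, 7, 11 and 15 it measured 70.1, 73.9, 73.0, 62.0, 114, 115 and 52.5 CPM. In cKO mice 8, 9, 12, 13 and 14 it measured 34.7, 44.5, 24.6, 31.2 and 51.5 CPM. WT 7 and WT 11 were far above the other WT mice, and the groups did not overlap, although the lowest WT library and the highest cKO library, WT 15 and cKO 14, were close. The group means were 80.2 ± 24.8 (SD, n = 7) and 37.3 ± 10.7 CPM (n = 5), a ratio of 0.465. On the log2(CPM + 1) scale the difference was -1.08 (SE 0.21, 95% interval -1.53 to -0.62; limma adjusted p = 0.00798). The exact two-sided permutation p was 0.00126, the smallest that 792 splits of 12 libraries can give. Each library held 527 to 4823 Cck reads, and the authors' deposited table gives a log2 fold change of -1.10 with an FDR of 5.12e-05. The difference lay between -1.20 and -0.94 when each mouse was left out in turn, past the threshold in 12 of 12 fits, but it was -0.38 (adjusted p = 0.0712) with a thalamus marker score in the model and -0.90 (adjusted p = 0.0937) in the 7 libraries low in dopamine markers.

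Of the 15359 tested genes, 2172 (14.1%) passed an adjusted p of 0.05, of which 1004 (6.54%) were higher with the cKO label and 1168 (7.6%) were lower, and after centring on the median 1377 of 2431 were higher. The groups did not overlap for 6.73% of tested genes. Among the 6 genes, 1 passed, Cck, and it was also the 1 whose groups did not overlap. The authors' deposited table puts 4.94% of its genes under an FDR of 0.05, and again Cck was the 1 of the 6. At an unadjusted p under 0.05 there were 2 of the 6, Cck and Cckbr, beside 4773 tested genes (31.1%), so the count of 1 in 6 is near the share over all genes.

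**Figure D1:**
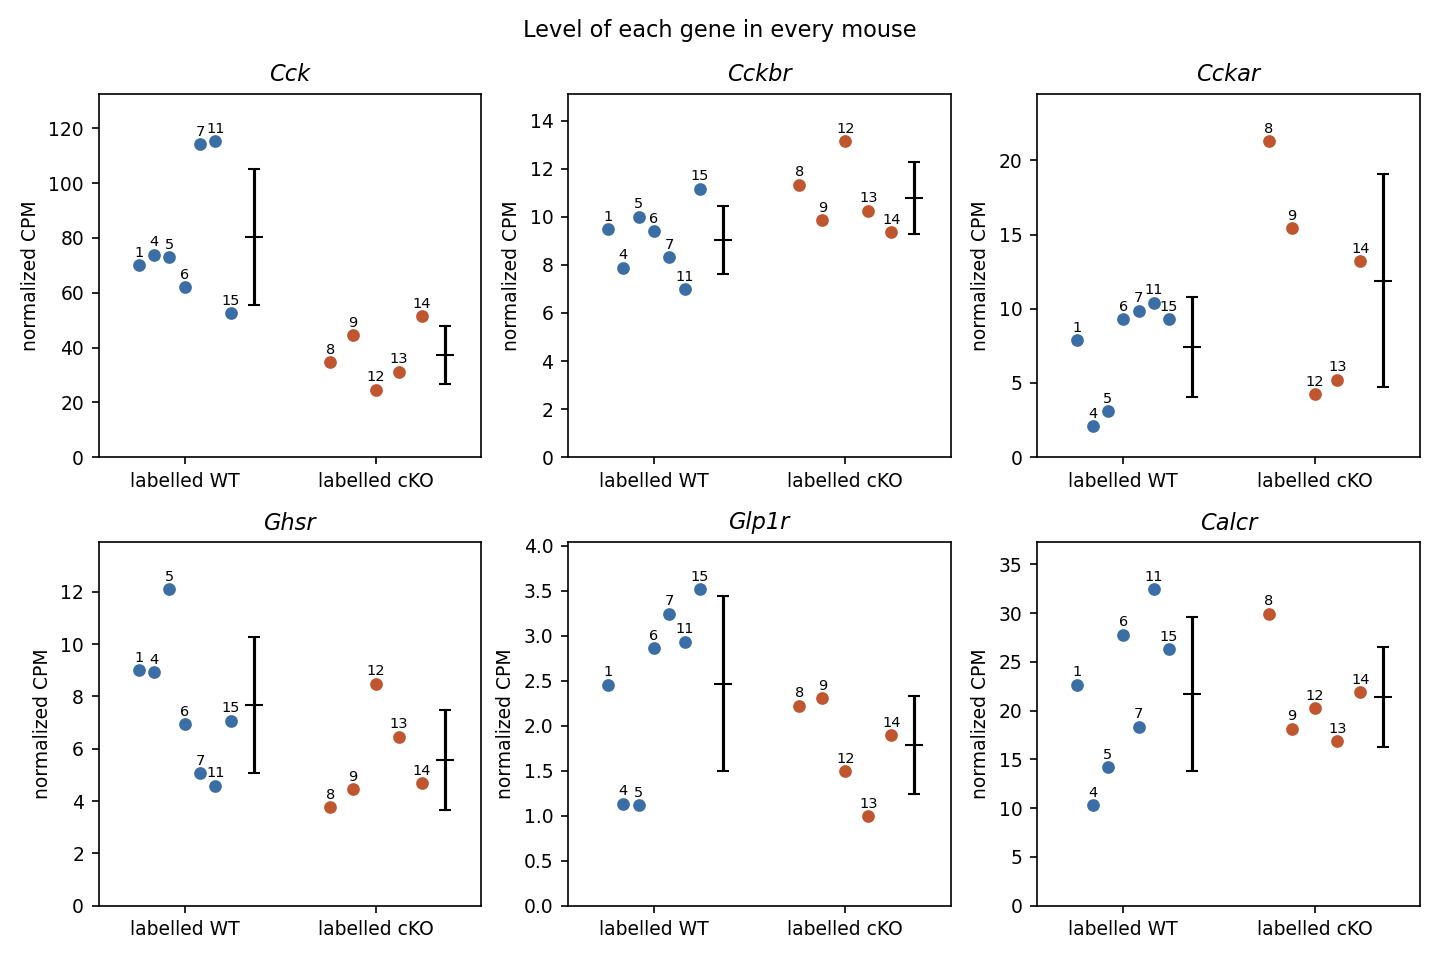
Normalized CPM of the 6 genes on the vertical axis, 1 point per mouse with its number, blue for libraries labelled WT and orange for those labelled cKO; bars show mean ± SD. The groups separate for Cck (lowest WT 52.5, highest cKO 51.5 CPM) and overlap for the other 5 genes, and WT 4 and WT 5 are the lowest WT mice for Cckar, Glp1r and Calcr.

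Cckbr, the main cholecystokinin receptor of the brain, did not pass the threshold. It measured 9.48, 7.89, 9.998, 9.40, 8.31, 6.98 and 11.2 CPM in WT mice 1, 4, 5, 6, 7, 11 and 15. It measured 11.3, 9.85, 13.2, 10.3 and 9.35 CPM in cKO mice 8, 9, 12, 13 and 14. The highest value was in cKO 12, which had the lowest Cck, and the lowest value in WT 11, which had the highest Cck, and the groups overlapped. The means were 9.03 ± 1.41 and 10.8 ± 1.51 CPM, a log2 difference of 0.24 (SE 0.11, 95% interval 0.00865 to 0.46; adjusted p = 0.147, unadjusted p = 0.0429, exact permutation p = 0.0682). Reads per library were 158 to 652. With the thalamus score in the model the difference was -0.08 (adjusted p = 0.602).

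Cckar, the receptor that carries the satiety signal of gut cholecystokinin on vagal fibres, varied widely between mice of both groups and did not pass the threshold. Its WT values in the same order of mice were 7.91, 2.07, 3.12, 9.31, 9.86, 10.4 and 9.30 CPM. Its cKO values were 21.3, 15.4, 4.24, 5.22 and 13.2 CPM. WT 4, WT 5, cKO 12 and cKO 13 were low, while cKO 8, cKO 9 and cKO 14 lay above every WT mouse. The means were 7.43 ± 3.40 and 11.9 ± 7.18 CPM, a log2 difference of 0.55 (SE 0.42, 95% interval -0.35 to 1.44; adjusted p = 0.399, exact permutation p = 0.280). In the 7 libraries low in dopamine markers, which leave out those 4 low mice and WT 1, the difference was 0.69 (adjusted p = 0.0357), and leaving out single mice gave 0.30 to 0.82, none past the threshold. With the thalamus score it was 0.94 (adjusted p = 0.353).

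Ghsr, the ghrelin receptor, did not pass the threshold. Its WT values were 9.01, 8.92, 12.1, 6.94, 5.06, 4.59 and 7.07 CPM. Its cKO values were 3.78, 4.46, 8.49, 6.46 and 4.68 CPM. The higher values fell in WT 1, WT 4, WT 5 and cKO 12, and the groups overlapped. The means were 7.67 ± 2.59 and 5.57 ± 1.91 CPM, a log2 difference of -0.39 (SE 0.21, 95% interval -0.85 to 0.07; adjusted p = 0.231, exact permutation p = 0.138). With the midbrain dopamine score in the model the difference was -0.33 with an adjusted p of 0.0190, and with weights for library quality -0.66 with an adjusted p of 0.0125. With the thalamus score it was -0.84 (adjusted p = 0.0720).

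Glp1r, the receptor for glucagon-like peptide 1, had the lowest level of the 6 genes, with 21 to 169 reads per library. Its WT values were 2.46, 1.13, 1.12, 2.86, 3.24, 2.93 and 3.51 CPM. Its cKO values were 2.22, 2.30, 1.49, 0.997 and 1.89 CPM. WT 4 and WT 5 lay below every cKO mouse but cKO 13, and the other 5 WT mice lay above all cKO mice. The means were 2.47 ± 0.973 and 1.78 ± 0.543 CPM, a log2 difference of -0.28 (SE 0.21, 95% interval -0.73 to 0.17; adjusted p = 0.382, exact permutation p = 0.245). The pseudocount of 1 shrinks this value, and the authors' deposited table gives -0.47 with an FDR of 0.514. Leaving out single mice gave log2 differences of -0.39 to -0.17, none past the threshold.

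Calcr, the calcitonin receptor and core of the amylin receptors, had nearly equal group means. Its WT values were 22.7, 10.3, 14.2, 27.8, 18.3, 32.4 and 26.3 CPM. Its cKO values were 30.0, 18.1, 20.2, 16.9 and 21.9 CPM. WT 4 and WT 5 were again the lowest of their group, and the cKO range lay inside the WT range. The means were 21.7 ± 7.87 and 21.4 ± 5.15 CPM, and the log2 difference was 0.04 with a 95% interval of -0.47 to 0.55 (SE 0.24, adjusted p = 0.934, exact permutation p = 0.891). Changes within those bounds are not excluded by these mice.

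Per kilobase of exon, with exon lengths from GENCODE M21, Cck had the highest level of the 6 genes in the libraries labelled WT, at 61.4 ± 19.0 CPM per kb. Calcr followed at 5.55 ± 2.01, Cckbr at 3.16 ± 0.491, Cckar at 2.02 ± 0.924, Ghsr at 1.73 ± 0.583 and Glp1r at 0.424 ± 0.167 CPM per kb. The ranges of Calcr and Cckbr, of Cckbr and Cckar, and of Cckar and Ghsr overlapped, so these neighbours were not separated, while every WT value of Cck lay above every value of Calcr and every WT value of Ghsr above every value of Glp1r. The order of means was the same in the libraries labelled cKO, where Cck stood at 28.6 ± 8.196 and Glp1r at 0.307 ± 0.0935 CPM per kb. The annotation the authors counted on is not given in the sources used here, so these lengths may differ from theirs.

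All 6 genes varied more among WT mice than the median tested gene, whose coefficient of variation was 8.19%. That median was not matched for expression level, and the part of counting noise at low reads was not tested. The coefficient was 45.8% for Cckar, 39.5% for Glp1r, 36.3% for Calcr, 33.7% for Ghsr, 30.9% for Cck and 15.6% for Cckbr. Cck and Cckbr moved in opposite directions from mouse to mouse within groups. After each group's mean was subtracted, log2(CPM + 1) of Cck and Cckbr gave Pearson r = -0.847 over 12 libraries (permutation p = 0.00144, adjusted over 27 relations 0.00788) and Spearman rho = -0.804 (permutation p = 0.0048, adjusted 0.0259). Without WT 11 and cKO 12, r was -0.712, and within the 7 libraries low in dopamine markers it was -0.925.

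Both genes followed the thalamus score, the mean log2(CPM + 1) of 10 marker genes, of which Prkcd, Ntng1, Rgs16, Plekhg1 and Rora were lower in the libraries labelled cKO and 5 did not pass. The score was 6.54, 6.82, 6.71, 6.50, 7.12, 7.26 and 6.36 in WT mice 1, 4, 5, 6, 7, 11 and 15. It was 6.13, 6.29, 5.63, 6.28 and 6.52 in cKO mice 8, 9, 12, 13 and 14, so that cKO 14 alone lay inside the WT range. Cck rose with the score within groups (r = 0.937, permutation p = 6.0e-05, adjusted 0.00162; rho = 0.916, permutation p = 2.5e-04, adjusted 0.00648), with r = 0.899 without WT 11 and cKO 12 and 0.990 within the 7 libraries. Cckbr fell with it (r = -0.915, permutation p = 1.3e-04, adjusted 0.00175; rho = -0.874, permutation p = 7.8e-04, adjusted 0.00702), with r = -0.810 and -0.938 in the same checks. At nearly the same score, 6.50 to 6.54, Cck was 62.0 CPM in WT 6, 51.5 CPM in cKO 14 and 70.1 CPM in WT 1, and Cckbr was 9.40, 9.35 and 9.48 CPM. Because the scores of the groups overlap in 1 cKO mouse, a difference by label and a difference by thalamus marker level cannot be told apart for most of these libraries.

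**Figure D2:**
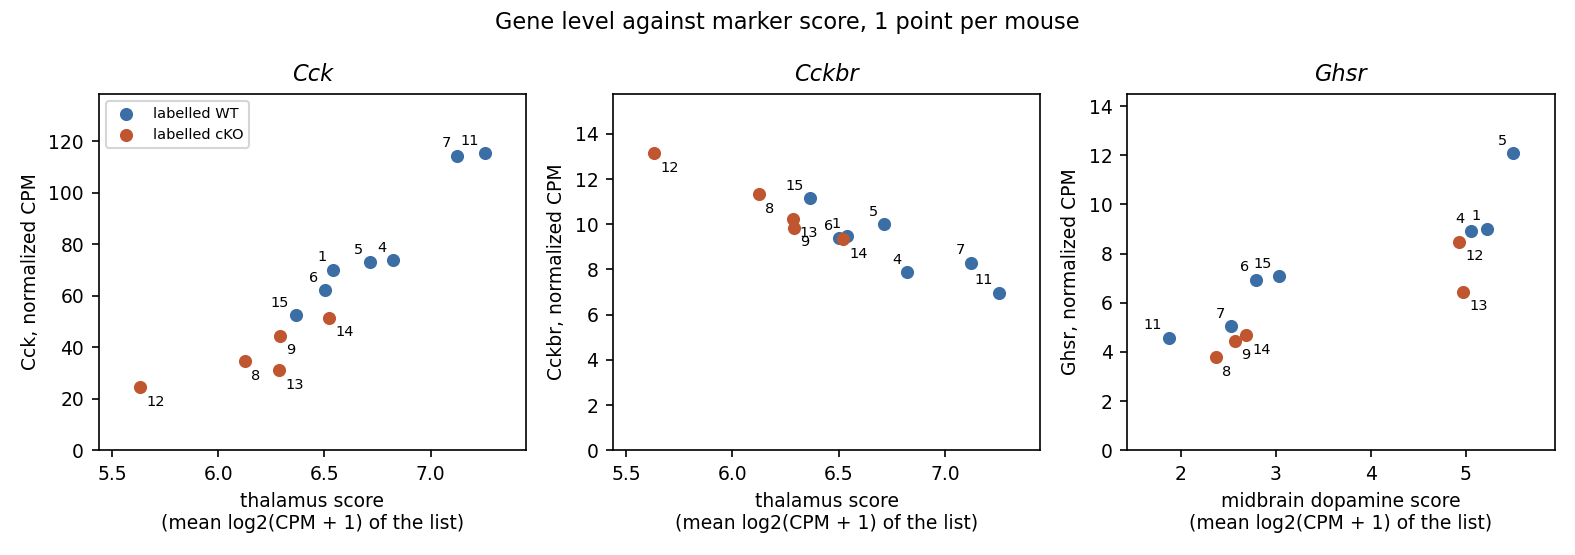
Normalized CPM of Cck and Cckbr against the thalamus score and of Ghsr against the midbrain dopamine score, 1 point per mouse with its number, blue for libraries labelled WT and orange for those labelled cKO. Cck climbs from 24.6 CPM in cKO 12 to 115 CPM in WT 11 along the thalamus score while Cckbr descends from 13.2 to 6.98 CPM, and the dopamine score leaves a gap between 3.03 and 4.93.

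The receptors Ghsr, Cckar and Glp1r, but not Calcr, went with the split by midbrain dopamine markers, whose score was 4.93 to 5.50 in WT 1, WT 4, WT 5, cKO 12 and cKO 13 and 1.87 to 3.03 in the other 7 libraries. Ghsr was 8.92 to 12.1 CPM in the WT mice with the high score and 4.59 to 7.07 CPM in the others, and it was 8.49 and 6.46 CPM in cKO 12 and cKO 13 against 3.78 to 4.68 CPM in the rest. Cckar ran the other way, at 2.07 to 7.91 CPM in the high-score WT mice against 9.30 to 10.4 CPM, and at 4.24 and 5.22 CPM against 13.2 to 21.3 CPM among cKO mice. Glp1r likewise ranged from 1.12 to 2.46 CPM against 2.86 to 3.51 CPM in WT and from 0.997 to 1.49 CPM against 1.89 to 2.30 CPM in cKO. Calcr ranges overlapped across this split in both groups. The hypothalamus score was low in WT 4 (2.33), WT 5 (2.03), cKO 12 (2.66) and cKO 13 (3.15) but 3.96 in WT 1, and among the other 7 libraries it was 3.16 in WT 11 and 3.96 to 4.83 in the rest. Since the libraries form 2 clusters, no correlation over all 12 is given for these genes, and the cluster of 5 is too small for one. With the dopamine score as a covariate the log2 difference was -0.33 for Glp1r, 0.44 for Cckar and -0.33 for Ghsr. With the hypothalamus score it was -0.40, 0.31 and -0.30 in the same order of genes. The part of these markers in the group differences was not tested.

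**Figure D3:**
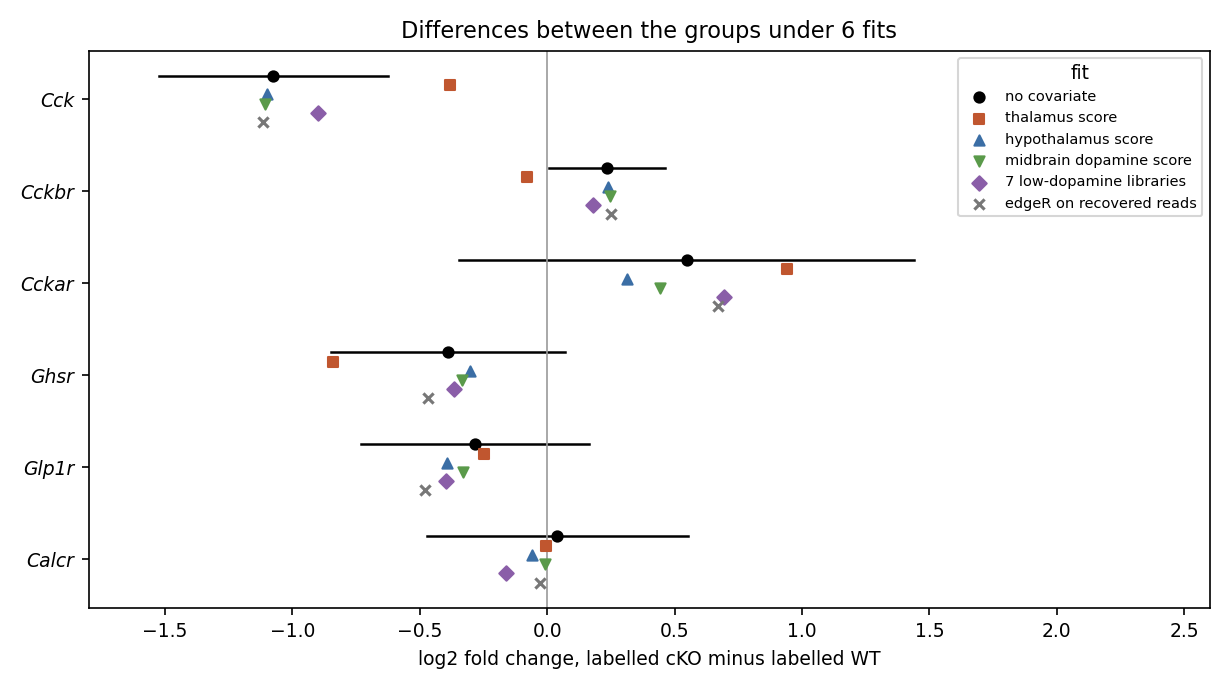
Log2 fold change, labelled cKO minus labelled WT, on the horizontal axis for the 6 genes under 6 fits: no covariate (black, with the 95% interval), each of 3 marker scores as a covariate, the 7 libraries low in dopamine markers, and edgeR on recovered reads. Cck stays below 0 in all of these but shrinks to -0.38 with the thalamus score, Cckbr crosses from 0.24 to -0.08, and Calcr lies between -0.16 and 0.04.

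The 5 tested genes whose group-centred log2(CPM + 1) was most like that of Cck over the 12 libraries were Rasd1 (r = 0.979), Foxp1 (0.976), Shox2 (0.967), Adra2b (0.963) and Kcnip4 (0.958). Rasd1, a dexamethasone-induced Ras-like protein, was lower in the libraries labelled cKO by -1.20 on the log2 scale (adjusted p = 0.00667), with groups that did not overlap, 17.2 to 38.2 CPM in WT and 5.88 to 15.5 CPM in cKO. Adra2b, an alpha-2 adrenergic receptor, was lower (log2 difference -0.88, adjusted p = 0.0408), at 4.72 to 11.7 CPM in WT and 1.54 to 6.16 CPM in cKO. Adra2b was past the threshold in 5 of 12 fits that left out a mouse (adjusted p up to 0.0957) and in 8 of 16 other alternatives. Shox2 (-0.63, adjusted p = 0.1002), Kcnip4 (-0.36, adjusted p = 0.0757) and Foxp1 (-0.21, adjusted p = 0.353) did not pass. Over 16 alternatives the lowest adjusted p was 0.0383 for Shox2, 0.0250 for Kcnip4 and 0.139 for Foxp1, so Shox2 and Kcnip4 passed in some. With the thalamus score in the model the signs of these 3 turned, Adra2b was at -0.066 (adjusted p = 0.871) and Rasd1 at -0.43 (adjusted p = 0.0202). In the 7 libraries low in dopamine markers Rasd1 was at -1.02 (adjusted p = 0.0721). The exons of Shox2 and Kcnip4 overlap genes of the opposite strand and those of Foxp1 genes of the same strand, and whether reads were counted by strand is not given in the sources used here.

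The genes around the receptors were read against lists of enzymes, other peptides, other receptors and signalling proteins. None of the 9 tested genes for enzymes that cut, amidate or sulfate peptide precursors and for the helpers and inhibitors of the convertases passed the threshold by limma, DESeq2 called 1, and the median log2 difference was 0.04 against 0.00925 over all tested genes. Cpe, the carboxypeptidase that trims peptide precursors, stood at 2665 to 3321 CPM in WT (log2 difference 0.08, adjusted p = 0.470), and Pcsk1n, an inhibitor of prohormone convertase 1, at 1005 to 1250 CPM (0.04, adjusted p = 0.678); exons of Pcsk1n overlap Eras on the opposite strand.

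Of 12 genes of Gq signalling, the route from cholecystokinin receptors to calcium release, 1 was higher and 2 were lower, with a median of -0.01, beside 14.1% of all tested genes past the threshold. Itpr1, the calcium channel opened by inositol trisphosphate, was lower (log2 difference -0.73, SE 0.15, adjusted p = 0.00882). It measured 227, 180, 197, 203, 258, 303 and 224 CPM in WT mice 1, 4, 5, 6, 7, 11 and 15 and 103, 147, 126, 120 and 193 CPM in cKO mice 8, 9, 12, 13 and 14, so that cKO 14 alone reached the WT range. Rgs4, a brake on Gq signalling, was lower (log2 difference -0.32, adjusted p = 0.0249), and Gnaq, the alpha subunit itself, was higher by 0.12 (adjusted p = 0.0241) with groups that did not overlap. In the authors' deposited table the FDR was 0.119 for Gnaq, 0.0149 for Rgs4 and 2.17e-04 for Itpr1. With the thalamus score as a covariate none of these 3 was past the threshold: the difference was -0.43 for Itpr1 (adjusted p = 0.161), -0.091 for Rgs4 (adjusted p = 0.514) and 0.11 for Gnaq (adjusted p = 0.188). Leaving out 1 mouse ended the call of Gnaq without WT 1 (adjusted p = 0.0518), cKO 8 (0.0532) or cKO 14 (0.0530), and that of Rgs4 without cKO 8 (0.0568) or cKO 12 (0.0526). With weights for library quality Rgs4 was at -0.20 (adjusted p = 0.0566). The exons of Itpr1 overlap genes of the opposite strand.

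Of 20 genes of Gs signalling, the cyclic AMP route of Glp1r and Calcr, 4 were higher and 1 was lower, with a median of 0.07, beside 6.54% of all tested genes higher and 7.6% lower. The 4 were subunits of protein kinase A, Prkacb (0.20, adjusted p = 0.0218), Prkar1a (0.17, adjusted p = 0.0140) and Prkar1b (0.17, adjusted p = 0.0140), and Creb1 (0.13, adjusted p = 0.0364), the transcription factor the kinase phosphorylates. Adcy6, an adenylyl cyclase, was lower (log2 difference -0.34, adjusted p = 0.0324). The authors' deposited FDR was 0.180 for Creb1, 0.0256 for Prkacb, 0.0175 for Prkar1a, 0.0191 for Prkar1b and 0.0209 for Adcy6. The exons of Adcy6 overlap a gene of the opposite strand and those of Prkar1b a gene of the same strand. The differences of the named Gs genes were small beside that of Cck. With the thalamus score in the model none of the 20 was past the threshold in that limma fit. The differences there were 0.13 for Prkacb, 0.15 for Prkar1a, 0.14 for Prkar1b, 0.16 for Creb1 and -0.33 for Adcy6, with adjusted p from 0.103 to 0.256. When each mouse was left out in turn, Creb1 was past the threshold in 3 of 12 fits (adjusted p up to 0.0855) and Adcy6 in 6 of 12 (up to 0.0706), and Prkacb lost its call without cKO 14 (adjusted p = 0.0521). Of 6 neuron markers, 2 were higher in the libraries labelled cKO, Stmn2 (0.20, adjusted p = 0.0224) and Map2 (0.25, adjusted p = 0.0162), and 4 did not pass. The summed level of the list was 4350 to 4850 CPM in WT and 4917 to 5336 CPM in cKO. Of 3 glutamatergic neuron markers 1 was lower, Slc17a8 (-0.92, adjusted p = 0.00181). Of 8 striatum markers 1 was lower, Penk (-0.45, adjusted p = 0.0143). Of 8 mammillary and supramammillary markers 1 was higher, Sim1 (0.56, adjusted p = 0.0206). The part of these markers in the result was not tested.

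Among 18 other gut and related peptides, 17 were listed, 7 were tested and 1 passed, beside 14.1% of all tested genes. Ghrl, which encodes ghrelin, the ligand of Ghsr, was lower (log2 difference -0.49, adjusted p = 0.0223), from 1.21 to 1.82 CPM in WT and 0.427 to 1.40 CPM in cKO, on 9 to 123 reads per library, and its exons overlap genes of the opposite strand. The pseudocount of 1 shrinks this value too: it was -0.88 with a pseudocount of 0.1 and -0.85 with edgeR and with DESeq2. Without cKO 14 it was -0.43 (adjusted p = 0.0542). The ligands of Glp1r and of the amylin receptor were at 0 to 0.0890 CPM (Gcg) and at 0 to 0.210 CPM (Iapp), too low to be tested. Of 20 other receptors and receptor partners, 14 were tested and 2 passed, both lower, which is near the 14.1% over all tested genes. Vipr2, a receptor for vasoactive intestinal peptide and PACAP, was lower (log2 difference -0.75, adjusted p = 0.0239), from 6.36 to 12.4 CPM in WT and 2.52 to 7.28 CPM in cKO. With the thalamus score in the model Vipr2 was at -0.27 (adjusted p = 0.455). Gipr, the receptor for glucose-dependent insulinotropic polypeptide, was lower (log2 difference -0.44, adjusted p = 0.0469), on 20 to 228 reads per library. The authors' deposited FDR was 0.0727 for Gipr and 0.0116 for Vipr2. Gipr was past the threshold in 2 of 12 fits that left out a mouse, and with the thalamus score it was at -0.76 (adjusted p = 0.0230). The partners that turn Calcr into an amylin receptor did not pass: the log2 difference was 0.12 for Ramp1, 0.05 for Ramp2 and -0.37 for Ramp3, with adjusted p of 0.176, 0.804 and 0.278.

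**Figure D4:**
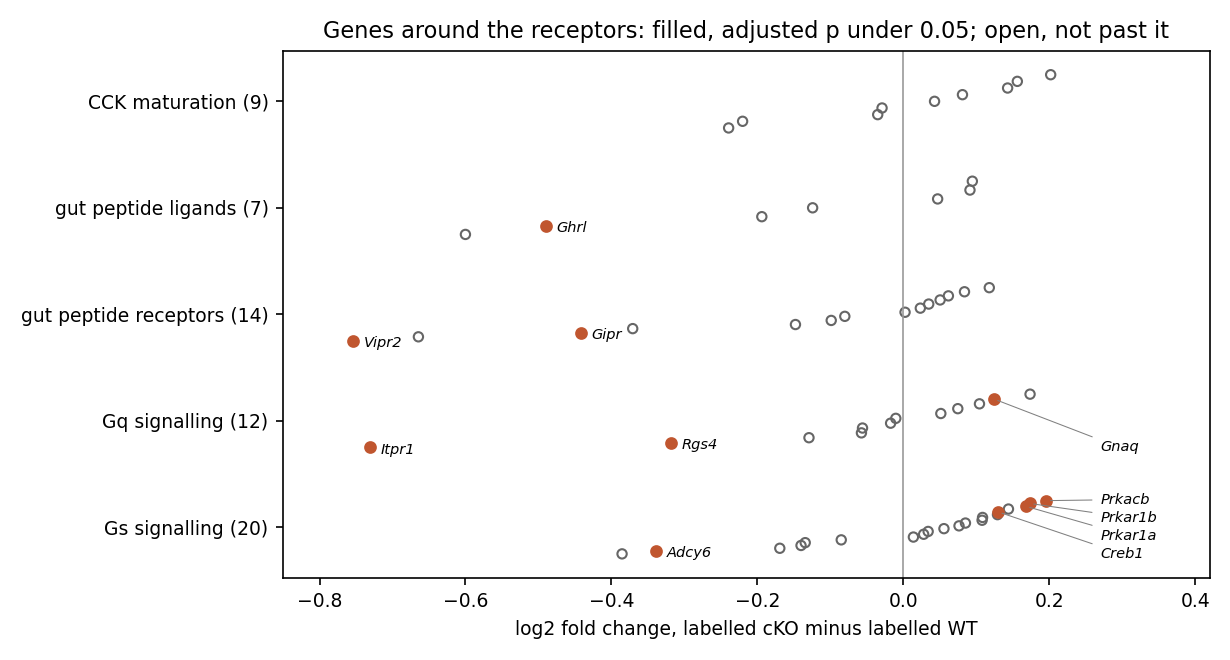
Log2 fold change, labelled cKO minus labelled WT, of the tested genes of 5 lists, 1 point per gene, with the number tested in brackets; filled points have an adjusted p under 0.05. The largest falls among the filled points are Vipr2 at -0.75 and Itpr1 at -0.73, while the filled points above 0 lie between 0.12 and 0.20.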

How the data were processed

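Poly(A) messenger RNA from the hypothalamus of 12 male mice was sequenced from NEBNext Ultra II libraries, per the labels' protocols. The submitters' processing notes name bcl2fastq, FastQC 0.11.9, STAR 2.7.9a, SAMtools, Subread and featureCounts without saying how each was used. The genome build, annotation and strand setting are not given in the sources used here. The deposited table holds normalized CPM per gene, and the authors' comparison table holds log2 fold changes with p-value and FDR columns; both are the authors' own values.

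Groups came from the sample titles. Log2(CPM + 1) of the 15359 genes averaging 1 CPM or more was fitted with limma 3.58.1 (R 4.3.3; lmFit, eBayes with trend) with no covariate, Benjamini-Hochberg adjusted over all of them, threshold 0.05. Single genes were also tested with an exact two-sided permutation test over 792 splits. All deposited CPM values gave whole reads within 0.01 (100% of values), and on those reads edgeR 4.0.16 (quasi-likelihood) called 2097 genes and DESeq2 1.42.0 called 2747. Each library carries its own number in the labels, read here as 1 mouse, and no batch is given; p-values measure the spread between these libraries. Correlations used group-centred values, with 100000 permutations within groups over 27 relations. Exon lengths came from GENCODE M21 and promoters from RefSeq. The fit was tested on simulated data.

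The 6 genes and all lists were chosen with earlier results of these data known. Genes named are those 6, Smc3, list genes past the threshold (for a list with none, the 2 most abundant), and the 5 genes most like Cck. Markers are named where a score is given or where they passed the threshold. Ramp1, Ramp2, Ramp3, Gcg and Iapp were named as ligands and partners of the receptors after their values were seen. Alternatives covered scaling, filters, pseudocount, models, marker scores as covariates and leaving out mice.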

Additional observations from a re-analysis of the deposited data

How the results depend on the processing

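No paired analysis was possible because the groups share no mouse number. Alternatives with the hypothalamus or dopamine score, and the 7 libraries low in dopamine markers, were chosen after seeing the data. Cck kept its direction in every alternative run, from -1.11 to -0.38 and, with mice left out, from -1.20 to -0.94, and lost the threshold in 2: the thalamus score (-0.38) and the 7 libraries (-0.90). Cckar passed in the 7 libraries (0.69), and Ghsr with array weights (-0.66) and with the dopamine score (-0.33). Cckbr turned to -0.080 with the thalamus score and was 0.14 with array weights. Calcr, near 0, turned to -0.11 with array weights, -0.0275 with edgeR, -0.029 with DESeq2, -0.00609 with the thalamus score, -0.061 with the hypothalamus score, -0.00720 with the dopamine score and -0.16 in the 7 libraries, and lay between -0.12 and 0.15 when mice were left out. Glp1r kept its direction and stayed above the threshold p throughout. It was -0.48 with edgeR and with DESeq2 and -0.17 without cKO 13. Pcsk1n turned to -0.011 with quantile normalization, and Foxp1 to 0.26, Shox2 to 0.21 and Kcnip4 to 0.050 with the thalamus score. The cause of these changes was not tested.

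The count of genes past the threshold was 5126 with array weights, 544 with the thalamus score, 484 in the 7 libraries, where fewer samples were fitted, and 1158 (without WT 1) to 2302 (without WT 5) when mice were left out. Cck maturation genes past it numbered 2 with array weights and 1 with DESeq2 or the dopamine score. Gq genes numbered 1 with the thalamus score (none of the 3 named), 0 in the 7 libraries and 1 (without cKO 8) to 3 without single mice. Gs genes numbered 1 with all genes above 0, 9 with array weights, 0 with the thalamus score, 1 in the 7 libraries and 3 (without WT 1) to 6 without single mice. Of the other peptides, 0 passed at a minimum of 5 CPM, where Ghrl was not tested, 3 with array weights, 2 with the dopamine score, 0 in the 7 libraries and 0 (without cKO 14) to 1 without single mice. Of the other receptors, 1 passed with quantile normalization, all genes above 0, a minimum of 5 CPM, edgeR or the thalamus score, 0 in the 7 libraries, and 1 to 2 without single mice. Glp1r, Ghrl and Gipr gave no value at a minimum of 5 CPM. Glp1r, with 21 to 169 reads per library, had the fewest reads of the 6 genes.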
